A study of Mus musculus with 72 samples.

Results

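The genes described here encode the heat shock proteins of the cytosol and mitochondria, the chaperones of the endoplasmic reticulum (ER), and transcription factors of the heat shock and ER stress responses. The 41 genes were listed by name and function with earlier fold changes of these data known, so every count over them below describes a chosen list. The probe set of each gene was selected on its mean log2 level over all 72 arrays, the highest among probe sets with 1 gene symbol; no comparison of groups entered that choice. Of the 41 genes, 39 could be read in this way and all 39 were tested, among 18193 genes with such a probe set and 12534 genes tested. Hsf1 and Hsp90ab1 are not analysed here. RNA was measured in the colon of 72 wild type Balb/c mice on Affymetrix 3′ expression arrays, 1 array per mouse. In 64 mice colitis had been induced with trinitrobenzene sulfonic acid (TNBS, 70 µg per g), a hapten that provokes an acute inflammation of the colon, and the tissue was taken on day 4. Of these, 8 mice were left untreated, 15 received a control antibody (anti-human CD20 of isotype IgG2a, 10 mg/kg), and 12 received TNFR-Ig (0.3 mg/kg), a soluble receptor fusion that binds the cytokine TNF. Another 14 received anti-TWEAK (mP2D10, 10 mg/kg), an antibody against the TNF family cytokine TWEAK, and 15 received both agents, the combination group. The TNFR-Ig mice received no control antibody, so only the anti-TWEAK and combination groups match the control antibody group in carrying an antibody. The remaining 8 mice were naive, without TNBS or treatment. Experiment 7 accounts for 34 of the arrays and experiment 10 for 38, including all naive mice.

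Chaperones bind unfolded proteins and use ATP to help them fold. In the cytosol, heat shock factor 1 induces Hsp70 and Hsp90 proteins when unfolded proteins accumulate. J proteins deliver clients to Hsp70, and co-chaperones such as Stip1 pass them on to Hsp90. In the ER, the sensors ATF6, IRE1 and PERK induce chaperones, disulfide isomerases and the factors Xbp1, Atf4 and Ddit3 when folding capacity is exceeded. The response has been studied in the intestine because goblet, Paneth and plasma cells secrete large amounts of protein.

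Some ER genes and some heat shock genes carried different promoter motifs, shown because the 2 groups are followed separately below. RefSeq promoter windows (build GRCm38.p6, from 250 bases before to 50 bases after a start site) were matched by symbol for 34 of the 41 genes. No window was matched for Hsf1, Hsp90aa1, Hsp90ab1, Hspa8, Hspa9, Hyou1 and Manf. The ER stress element, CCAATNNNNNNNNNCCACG on either strand, was found in 7 of 16 ER genes (43.8%), in 0 of 18 heat shock and mitochondrial genes, and in 37 of 27025 genes with a window (0.137%). A heat shock element of 3 units, GAANNTTCNNGAA or TTCNNGAANNTTC on either strand, was found in 4 of 18 heat shock and mitochondrial genes (22.2%), in 0 of 16 ER genes, and in 179 of all genes (0.662%). Its 4 carriers were Hspd1, Hspe1, Hsph1 and Chordc1. The windows of Hspa1a, Hspa1b, Dnajb1 and Bag3 held no match. The related element ATTGGNCCACG was found in Herpud1 and Dnajb11 and in 0.0444% of all genes. The element TGACGTGG was found in 0 of the 34 genes and in 0.714% of all genes. A match is a description of letters, not of a bound site. The stretches before the start sites of the matched genes follow, 5′ to 3′ on the strand of the gene, with the matches in capitals. For Hspd1 and Hspe1, which are divergent neighbours on chromosome 1, the matched stretch is 1 shared site read from opposite strands (chr1:55088029-55088106).
Hspe1: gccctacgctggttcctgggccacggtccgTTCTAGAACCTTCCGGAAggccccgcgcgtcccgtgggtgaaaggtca
Hspd1: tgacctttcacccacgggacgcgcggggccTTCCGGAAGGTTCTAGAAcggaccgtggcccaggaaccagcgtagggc
The ER stress elements of Hspa5 (chr2:34771995-34772073, plus strand), Hsp90b1 (chr10:86705503-86705686, minus strand, 2 matches) and Creld2 (chr15:88819490-88819568, plus strand) are followed by those of Pdia6 (chr12:17266461-17266539, plus strand), Dnajc3 (chr14:118937797-118937875, plus strand), Canx (chr11:50325770-50325848, minus strand) and Calr (chr8:84847045-84847123, minus strand).
Hspa5: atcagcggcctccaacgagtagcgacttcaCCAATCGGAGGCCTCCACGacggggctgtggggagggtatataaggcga
Hsp90b1: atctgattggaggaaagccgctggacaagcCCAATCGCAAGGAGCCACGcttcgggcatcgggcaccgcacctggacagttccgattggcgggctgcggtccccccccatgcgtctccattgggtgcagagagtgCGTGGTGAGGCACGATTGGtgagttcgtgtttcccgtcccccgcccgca
Creld2: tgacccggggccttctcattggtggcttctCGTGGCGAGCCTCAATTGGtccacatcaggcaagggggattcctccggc
Pdia6: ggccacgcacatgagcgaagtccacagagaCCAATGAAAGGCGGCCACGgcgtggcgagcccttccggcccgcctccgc
Dnajc3: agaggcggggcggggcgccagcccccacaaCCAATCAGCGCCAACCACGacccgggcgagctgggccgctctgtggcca
Canx: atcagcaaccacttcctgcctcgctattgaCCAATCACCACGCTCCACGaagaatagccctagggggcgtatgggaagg
Calr: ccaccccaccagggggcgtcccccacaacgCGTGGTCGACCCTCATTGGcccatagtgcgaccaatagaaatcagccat
In colitis 6 of these 7 ER genes rose and Canx did not pass the test, as described next. Of all 18 ER genes 13 rose, as did 22.2% of all genes tested. Whether the motif goes with the change was not tested.

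All levels below are log2 values of the deposited table, which run from a floor of 2.08 to 15.98, and none of the 39 genes lay at the floor on any array. A change is a log2 difference with its standard error (SE) from a limma fit with terms for group and experiment, and a gene is called at a Benjamini-Hochberg adjusted p (adj. p) under 0.05. Array medians were between 4.60 and 4.77. The colon label was borne out by colonocyte markers, whose mean level lay between 12.85 and 13.89 on every array. Pancreatic acinar markers, which a colon sample should lack, reached a mean level of 12.50 on a combination array of experiment 7 against a lowest value of 3.61. Skeletal muscle markers varied about as widely, with mean levels from 3.60 to 12.14. For 1 naive array the labels conflict; its title and source decided, and it counts as naive. In bulk tissue, a change in the share of a cell type and a change per cell cannot be told apart. The number of arrays limits the precision of every value, and the p-values measure the spread between mice.

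Colitis, the comparison of untreated with naive mice, raised chaperone genes of the cytosol, the mitochondria and the ER. Of the 39 genes, 26 rose and 1 fell (69.2% called), against 47.8% called among all 12534 genes (22.2% higher and 25.6% lower). The median change was 0.229, against -0.00853 over all genes. By compartment, 11 of 18 cytosolic genes, 2 of 3 mitochondrial genes and 13 of 18 ER genes rose. The largest change was 1.92-fold. Since the list was drawn up with results of these data known, these shares describe the list.

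Among cytosolic genes, Hspb1, a small heat shock protein that holds unfolded proteins without ATP, had the largest rise (0.94 ± 0.31, adj. p = 0.00876, 1.92-fold, limma). Its naive levels ran from 9.76 over a median of 10.15 to 10.40, and the untreated levels from 10.33 to 12.33 in experiment 7 and from 10.23 to 11.38 in experiment 10, so the groups overlapped. Hspa1a, a stress-inducible Hsp70 gene, was raised by 0.75 ± 0.29 (adj. p = 0.0286, limma). This call rested on 1 mouse: replicate 1 of the untreated mice of experiment 10 read 7.29, against 5.47, 4.05 and 4.71 in the other 3 of that experiment and 3.79, 4.22, 4.24 and 4.58 in experiment 7. Without this array the change was 0.42 (adj. p = 0.203, limma). Its near-identical neighbour Hspa1b read 14.14 in that mouse and 12.82 to 13.48 in the others of experiment 10, and it was at 0.31 ± 0.15 over both experiments, which did not pass (adj. p = 0.0847, limma). The probe sets of Hspa1a and Hspa1b may read transcripts of both copies, so the genes are not separated with certainty. 

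Genes that work with Hsp70 and Hsp90 rose. Stip1, which links Hsp70 to Hsp90, rose by 0.64 ± 0.14, Hsph1, the Hsp110 nucleotide exchange factor of Hsp70, by 0.54 ± 0.12, and Bag3, which couples Hsp70 to autophagy, by 0.46 ± 0.07. For Bag3 the groups did not overlap: the naive arrays ended at 10.64, and the untreated arrays of experiment 10 read 11.27, 10.89, 10.80 and 10.95. Chordc1, an Hsp90 partner, rose by 0.34 ± 0.08, Dnaja1, a J protein, by 0.32 ± 0.08, Hsp90aa1, the inducible Hsp90, by 0.30 ± 0.08, and Ahsa1, which stimulates the Hsp90 ATPase, by 0.29 ± 0.09. Hspa4, a second Hsp110 protein, rose by 0.19 ± 0.06 and Hspa8, the constitutive Hsp70, by 0.11 ± 0.03. The mitochondrial partners Hspd1 (Hsp60) and Hspe1 (Hsp10) rose by 0.23 ± 0.08 and 0.22 ± 0.05. Dnajb1, a J protein that is a classical heat shock target, was at -0.05 ± 0.10 (adj. p = 0.674, limma) and did not pass. Fkbp4 (0.23 ± 0.10), Hspb8 (0.22 ± 0.14), Hspa4l (0.11 ± 0.13), Hspa9 (0.12 ± 0.05), Dnajb4 (-0.004 ± 0.073) and Hsf2 (-0.05 ± 0.10) did not pass either.

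In the ER, Creld2, an ER stress protein with isomerase-like motifs, rose by 0.90 ± 0.15 (adj. p = 1.33e-06, limma). Its naive arrays read from 10.46 over 10.60 to 10.69. The untreated arrays read 11.87, 11.24, 10.74 and 11.34 in experiment 10 and 11.51, 11.38, 11.34 and 11.32 in experiment 7, all above the naive arrays. Hyou1, the large Hsp70-like exchange factor of the ER, rose by 0.86 ± 0.14, from 9.69 to 10.17 in naive mice to 10.28 to 10.90 in untreated mice of experiment 10. Sdf2l1, which works with the ER J protein Dnajb11, rose by 0.71 ± 0.14 and Manf, a secreted ER stress protein, by 0.64 ± 0.11. Hspa5 (BiP), the Hsp70 of the ER, rose by 0.39 ± 0.06 (adj. p = 1.26e-07, limma): naive arrays ended at 13.79, and the lowest untreated array read 13.91. Pdia4 (0.54 ± 0.10), Pdia6 (0.43 ± 0.11) and Pdia3 (0.15 ± 0.03), which form disulfide bonds, rose, as did Hsp90b1 (0.34 ± 0.07), the Hsp90 of the ER, and the lectin chaperone Calr (0.19 ± 0.03). Dnajc3 rose by 0.22 ± 0.06. Dnajb11 rose by 0.14 ± 0.06, a call that was lost without the same untreated array (0.13, adj. p = 0.0736, limma). Canx (0.03 ± 0.04), the membrane-bound partner of Calr, Dnajb9 (-0.11 ± 0.06) and Herpud1 (0.18 ± 0.11), a component of ER-associated degradation, did not pass. For Herpud1 the untreated arrays of experiment 10 nevertheless lay above all naive arrays, as for 10 of the 39 genes in total (9.69% of all genes).

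The ER stress factors moved apart. Xbp1, the target of IRE1, rose by 0.26 ± 0.05 (adj. p = 5.35e-05, limma), from 12.26 to 12.48 in naive mice to 12.62, 12.62, 12.55 and 12.69 in untreated mice of experiment 10, without overlap. Ddit3 (CHOP), a pro-apoptotic factor downstream of PERK, was the 1 gene that fell (-0.34 ± 0.13, adj. p = 0.0316, limma). Its levels were 9.17 to 9.66 in naive mice and 9.59, 9.19, 9.16 and 8.80 in untreated mice of experiment 10, which overlapped, and 8.91 to 9.04 in untreated mice of experiment 7, below the naive mice. In experiment 10 alone Ddit3 was at -0.29 ± 0.15 (adj. p = 0.109, limma), which did not pass. Atf4, the factor whose translation PERK raises, was at -0.02 ± 0.05, with a 95% interval from -0.118 to 0.088. The array values do not cover Atf4 translation or Xbp1 splicing.

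Other genes of these pathways were read from lists that exclude the 39 genes. Of 47 further genes of ER stress, degradation and secretion, 28 rose and 0 fell (59.6% called, against 47.8% of all genes), with a median of 0.181. They were led by the ER oxidase Ero1a (0.68 ± 0.11), the factor Creb3l2 (0.53 ± 0.13), the folding sensor Uggt1 (0.52 ± 0.09) and Sec23b, a vesicle coat subunit (0.39 ± 0.09). Of 40 further cytosolic and mitochondrial chaperones and co-chaperones, 12 rose and 2 fell, with a median of 0.0945; this was 35% called, below the 47.8% among all genes. The rises were led by Fkbp5 (1.00 ± 0.21), a co-chaperone of steroid receptors, and Serpinh1 (0.77 ± 0.16), the collagen chaperone, followed by Hspa2 (0.31 ± 0.11) and Cct3 (0.29 ± 0.07). Hspb6 (-0.70 ± 0.17), a small heat shock protein of muscle, and Dnajb5 (-0.37 ± 0.11) fell. Of 28 genes named as targets of Atf4 and Ddit3, 15 rose and 2 fell (60.7% called): Cebpb rose by 2.64 ± 0.28, Slc7a11 by 2.30 ± 0.30, Shmt2 by 1.12 ± 0.21 and Slc7a5 by 1.08 ± 0.19, and Nupr1 (-0.48 ± 0.06) and Cth (-0.40 ± 0.09) fell. Cebpb is also induced by inflammatory cytokines.

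**Figure D1:**
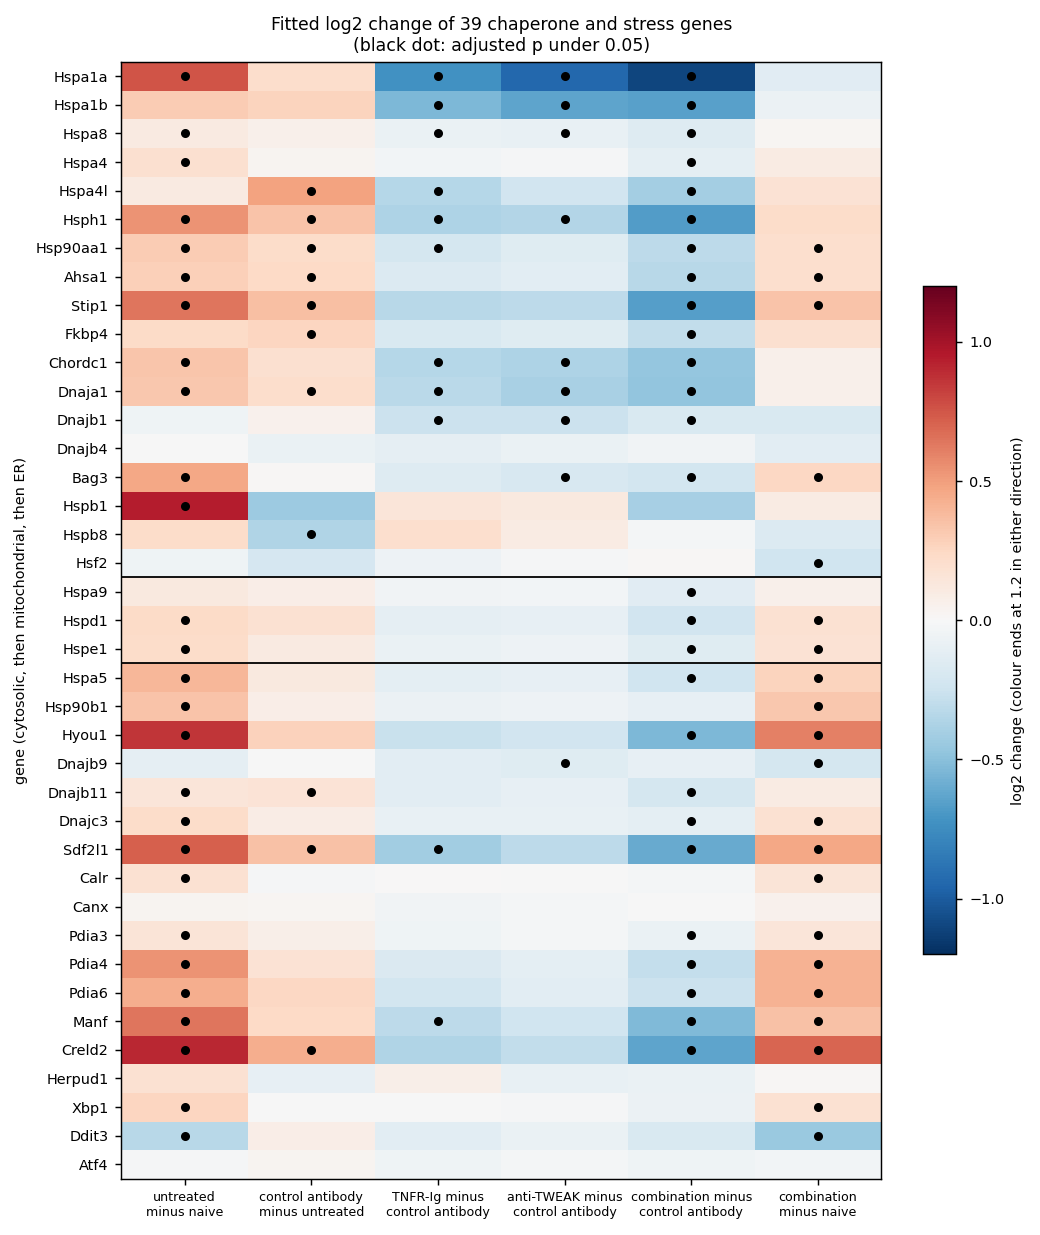
Fitted log2 change of the 39 genes (listed down the side, grouped as cytosolic, mitochondrial and ER) in 6 comparisons (columns); red is higher, blue is lower, and a black dot marks an adjusted p under 0.05. The column of untreated minus naive mice is mostly red (26 rises, 1 fall), and that of combination minus control antibody is blue for 38 of 39 genes (27 called).

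Cell type markers moved with colitis as well. All 12 tested macrophage markers and all 10 tested neutrophil markers rose (medians 2.44 and 7.04), 10 of 12 colonocyte markers and 11 of 11 smooth muscle markers fell, and of 8 plasma cell markers 1 rose and 3 fell. The mean neutrophil marker level was 2.68 to 3.98 in naive mice and 8.87 to 10.64 in untreated mice of experiment 10. Their part in the chaperone changes was not tested, apart from the relations within groups given below.

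Among colitic mice, those given the control antibody were set against those left untreated, to see what an antibody alone does. It went with higher levels of cytosolic and ER chaperones: 10 genes rose and 1 fell (28.2%, against 10.3% among all genes, 4.82% higher and 5.52% lower), with a median of 0.106 against 0.03. The rises were Hspa4l (0.48 ± 0.11), an Hsp110 protein, Creld2 (0.44 ± 0.13), Stip1 (0.37 ± 0.12), Sdf2l1 (0.35 ± 0.12), Hsph1 (0.34 ± 0.11), Fkbp4 (0.26 ± 0.09), an Hsp90-binding immunophilin, Ahsa1 (0.24 ± 0.07), Hsp90aa1 (0.22 ± 0.07), Dnaja1 (0.21 ± 0.07) and Dnajb11 (0.16 ± 0.05). Hspb8, a small heat shock protein and partner of Bag3, fell by 0.36 (SE 0.12). Of the stress markers followed in every comparison, Hspa1a (0.21 ± 0.25), Hspa1b (0.27 ± 0.13), Dnajb1 (0.05 ± 0.08), Hspa5 (0.12 ± 0.05), Xbp1 (-0.01 ± 0.05), Ddit3 (0.08 ± 0.11) and Atf4 (0.04 ± 0.04) did not pass. Without the untreated mouse that stands apart, Hspa1b was called too (0.40, adj. p = 0.0268, limma).

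Fitted by itself, experiment 10 had 20 genes that rose and 1 that fell, in a fit where 17.8% of all genes were called (12.7% higher and 5.11% lower). Experiment 7 had 0 of 39 called by limma and 2 with an unadjusted p under 0.05, against 0.0479% of all genes called. The unadjusted limit was met there by 1373 of all 12534 genes. For Manf the 7 control antibody arrays of experiment 10 read from 12.80 to 13.07 and the 4 untreated arrays 12.74, 12.41, 12.06 and 12.49, without overlap. In experiment 7 the same groups read 12.42 to 12.93 and 12.64 to 12.79. The arrays of the control antibody group lay above all untreated arrays of experiment 10 for 4 of 39 genes (Hyou1, Dnajb11, Dnajc3 and Manf; 3.02% of all genes) and for 0 genes in experiment 7 (0.351% of all genes). The difference between the experiments was itself called for 0 of 39 genes and for 0.016% of all genes (limma); without the untreated array named above, Ahsa1 passed (0.50, adj. p = 0.0365, limma). With a block for replicate number 6 genes were called, all higher. Myeloid markers went the other way: 9 of 12 macrophage markers and 3 of 10 neutrophil markers fell, with medians of -1.08 and -1.15.

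Combined TNFR-Ig and anti-TWEAK treatment was compared with the control antibody to see what blocking both cytokines changes. Against that group, chaperone genes of all compartments were lower: 27 of 39 genes fell and 0 rose (69.2%), against 31.2% called and 17% lower among all genes. The control antibody group itself lay above untreated mice for 7 cytosolic and 3 ER genes. Against untreated mice the combination lowered 9 of 18 cytosolic, 0 of 3 mitochondrial and 1 of 18 ER genes (10.6% of all genes). The median was -0.223, against -0.0025 over all genes. The falls took in 14 of 18 cytosolic genes, all 3 mitochondrial genes and 10 of 18 ER genes. Hspa1a fell by 1.10 (SE 0.21, adj. p = 8.13e-05, a factor of 2.15, limma). In experiment 10 its control antibody arrays read from 5.03 over 5.31 to 6.88 and the combination arrays from 3.90 over 4.14 to 5.29. In experiment 7 the corresponding values were 3.24, 4.61 and 4.92, and 2.77, 3.61 and 4.20, so the groups overlapped in both. Hspa1b fell by 0.65 (SE 0.11): in experiment 10 the control antibody arrays read 13.31 to 14.10 and the combination arrays 12.60 to 13.06, without overlap.

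Hsph1 fell by 0.67 (SE 0.09, adj. p = 2.44e-07, limma). Its control antibody arrays of experiment 7 ran from 13.12 to 13.94 and the combination arrays from 11.90 to 13.07, without overlap. Stip1 fell by 0.66 (SE 0.10), Chordc1 by 0.47 (SE 0.06), Dnaja1 by 0.47 (SE 0.06) and Hspa4l by 0.41 (SE 0.09). The combination arrays lay below all control antibody arrays for 3 of 39 genes in experiment 7 (Hspa8, Hsph1 and Chordc1; 0.311% of all genes) and for 8 in experiment 10 (1.16%). For Chordc1 this held in both experiments: 12.27 to 12.72 against 11.45 to 12.23 in experiment 7, and 12.55 to 13.02 against 12.25 to 12.45 in experiment 10. Ahsa1 fell by 0.33 (SE 0.06), Hsp90aa1 by 0.32 (SE 0.06), Fkbp4 by 0.30 (SE 0.07), Hspd1 by 0.23 (SE 0.06) and Bag3 by 0.22 (SE 0.05). Dnajb1 fell by 0.18 (SE 0.07, adj. p = 0.0425, limma): it was at -0.40 ± 0.09 in experiment 10 and at 0.01 ± 0.09 in experiment 7. That difference between experiments was not called (-0.41 ± 0.13, adj. p = 0.264, limma), nor was that of any other of the 39 genes (0.0319% of all genes). The smaller falls were those of Hspa8 (-0.15 ± 0.02), Hspe1 (-0.15 ± 0.04), Hspa9 (-0.14 ± 0.04), the mitochondrial Hsp70, and Hspa4 (-0.12 ± 0.05). Hspb1 (-0.40 ± 0.22), Hspb8 (-0.03 ± 0.10), Dnajb4 (-0.04 ± 0.05) and Hsf2 (0.01 ± 0.07) did not pass.

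In the ER, Creld2 fell by 0.63 (SE 0.11), Sdf2l1 by 0.60 (SE 0.10), Hyou1 by 0.54 (SE 0.10) and Manf by 0.53 (SE 0.08). Pdia4 fell by 0.29 (SE 0.07), Pdia6 by 0.26 (SE 0.08), Hspa5 by 0.24 (SE 0.04), Dnajb11 by 0.21 (SE 0.04), Dnajc3 by 0.12 (SE 0.04) and Pdia3 by 0.08 (SE 0.02). Hspa5 read 13.97 to 14.20 under control antibody and 13.61 to 14.06 under the combination in experiment 7, and 14.19 to 14.35 against 13.94 to 14.31 in experiment 10. The groups overlapped in both. Xbp1 (-0.07 ± 0.04), Ddit3 (-0.19 ± 0.09), Atf4 (-0.05 ± 0.04), Hsp90b1 (-0.09 ± 0.05), Calr (-0.02 ± 0.02), Canx (-0.002 ± 0.027), Dnajb9 (-0.10 ± 0.04) and Herpud1 (-0.08 ± 0.08) did not pass. In experiment 7 alone Ddit3 passed (-0.35 ± 0.10, adj. p = 0.0316, limma), against 0.003 ± 0.131 in experiment 10.

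The combination groups of experiments 7 and 10 gave 18 and 22 called genes on their own, against 8.45% and 17.6% of all genes in the same fits (5.47% and 7.57% lower). Of the 26 genes that rose in colitis, 22 were lower under the combination than under the control antibody (84.6% of the former and 81.5% of the latter). Over all genes 1098 did so, 39.4% of the 2785 that rose and 51.5% of the 2131 that fell. These comparisons have no group in common, but both come from the same fit. They share its experiment term and its estimate of spread, so they are not independent. The combination arrays of experiment 7 include 2 whose description starts with another label than the first array of that experiment. This label was read as an array run. Without these 2 arrays 27 genes were called, Herpud1 in place of Hspa4 (Herpud1 -0.17, adj. p = 0.045, limma). Replicate 7, the lower of these for Hsph1 at 11.90, read 13.25 for Herpud1, the highest combination array of that experiment.

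**Figure D2:**
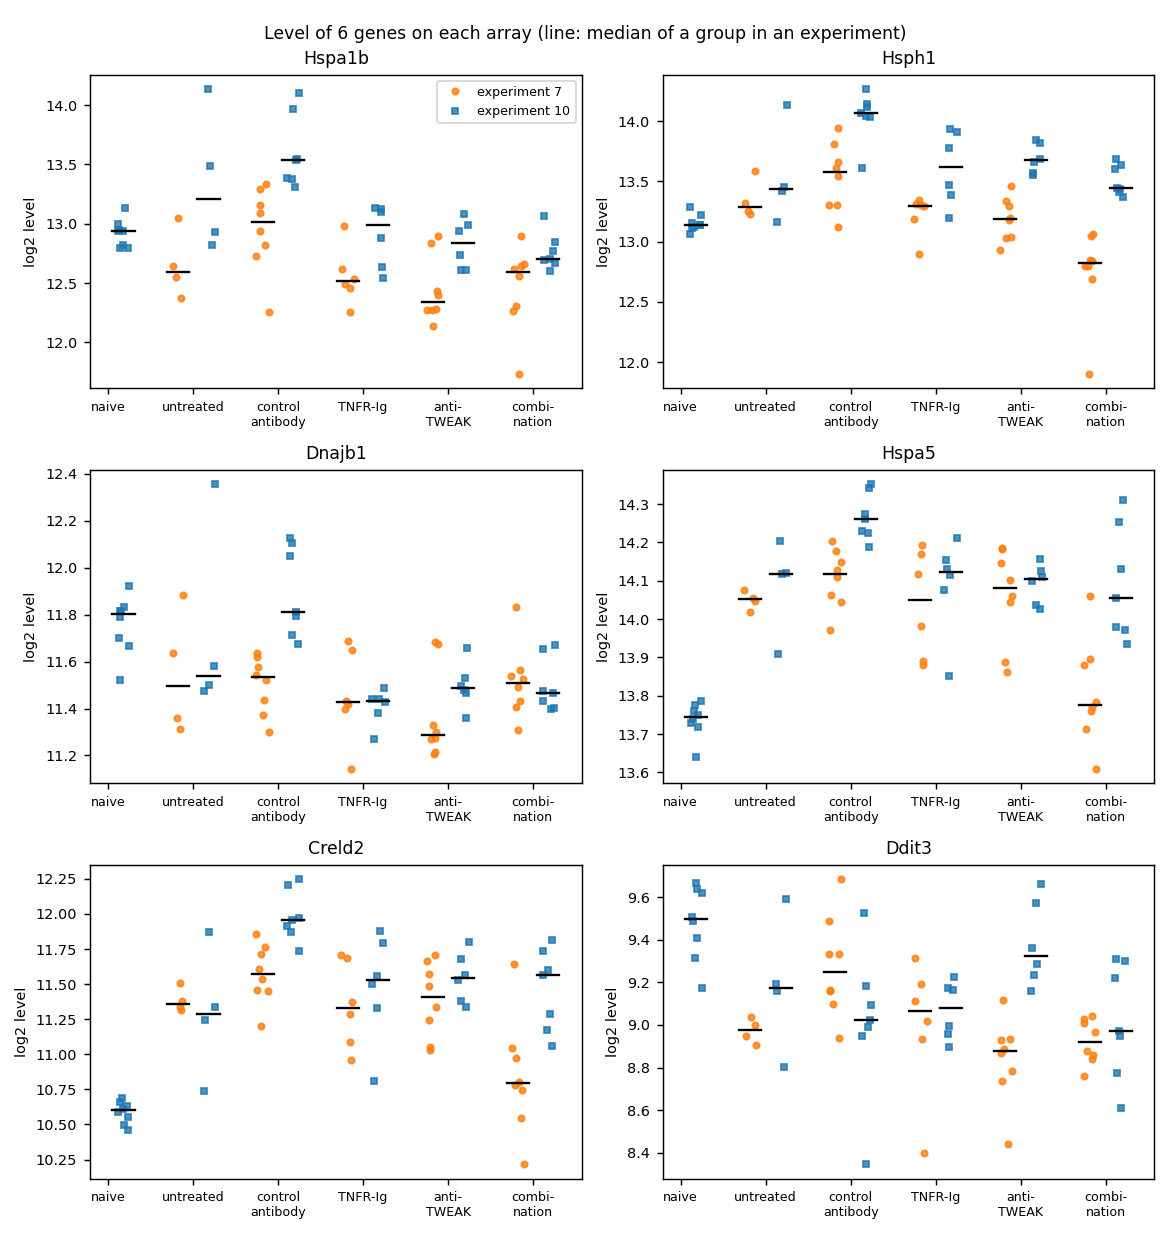
Log2 level (vertical axis) of 6 genes on each of the 72 arrays, by group and experiment; each point is a mouse and the black line is the median of a group in an experiment. Hspa1b is high under control antibody in experiment 10 (13.31 to 14.10) and in 1 untreated mouse (14.14), Creld2 is lowest in naive mice (10.46 to 10.69), and Ddit3 is at 9.17 to 9.66 in naive mice, above the untreated mice (8.91 to 9.04) and the anti-TWEAK mice (8.44 to 9.12) of experiment 7.

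The other genes of these pathways fell in part. Of 47 ER stress and secretory genes, 25 fell and 2 rose (57.4% called, against 31.2% called and 17% lower among all genes), led by Creb3l2 (-0.40 ± 0.09), Hspa13 (-0.36 ± 0.05), an Hsp70 of microsomes, the ubiquitin ligase Syvn1 (-0.35 ± 0.07) and Ero1a (-0.34 ± 0.08). Derl3 (0.24 ± 0.07) and Dnajb12 (0.16 ± 0.05) rose. Of 40 cytosolic and mitochondrial genes, 15 fell and 0 rose (37.5% called, close to the 31.2% of all genes), led by Bag2 (-0.61 ± 0.20), Dnaja4 (-0.28 ± 0.08), Dnajb2 (-0.26 ± 0.05) and Hspbp1 (-0.21 ± 0.07). Of 28 targets of Atf4 and Ddit3, 13 fell and 2 rose (53.6% called). Cebpb fell by 1.01 (SE 0.20), Slc7a11 by 0.68 (SE 0.22), Mthfd2 by 0.65 (SE 0.16) and Shmt2 by 0.58 (SE 0.15), and Gpt2 (0.27 ± 0.07) and Nupr1 (0.11 ± 0.04) rose. Beside these, 7 of 10 neutrophil markers and 3 of 12 macrophage markers fell (medians -1.50 and -0.364), 4 of 8 plasma cell markers rose (median 0.163), and 1 of 11 pancreatic acinar markers rose (median 2.17). With the pancreas marker level as a covariate, 27 genes were called, the same 27 as without it.

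TNFR-Ig was compared with the control antibody, a contrast that also carries the antibody. The genes that differed were mainly cytosolic: 11 of 39 were lower and 0 higher (28.2%, against 4.08% called and 1.73% lower among all genes), 9 of them cytosolic and 2 of the ER. The median was -0.127. Hspa1a was lower by a log2 change of -0.73 ± 0.22 (adj. p = 0.0418, limma) and Hspa1b by -0.54 ± 0.11 (adj. p = 0.00345, limma). Sdf2l1 (-0.42 ± 0.11), Hsph1 (-0.37 ± 0.09), Hspa4l (-0.34 ± 0.10), Chordc1 (-0.34 ± 0.06), Dnaja1 (-0.33 ± 0.06), Manf (-0.32 ± 0.08), Dnajb1 (-0.26 ± 0.07), Hsp90aa1 (-0.21 ± 0.06) and Hspa8 (-0.08 ± 0.02) followed. Hspa5 (-0.12 ± 0.04), Xbp1 (-0.005 ± 0.040), Ddit3 (-0.13 ± 0.10) and Atf4 (-0.05 ± 0.04) did not pass.

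In experiment 10 alone 24 genes were lower and 1 higher, where 15.6% of all genes were called (8.36% higher and 7.2% lower). In experiment 7, 0 of 39 genes and 0% of all genes were called by limma. An unadjusted p under 0.05 was reached by 8 of the 39 and by 553 of all 12534 genes. In experiment 10 the TNFR-Ig arrays lay below all control antibody arrays for 7 of 39 genes (Hspa1b, Hspa8, Chordc1, Dnaja1, Dnajb1, Sdf2l1 and Manf; 1.17% of all genes), and in experiment 7 for 0 (0.0239%). For Dnajb1 they read 11.27 to 11.49 against 11.67 to 12.13, and in experiment 7 they read 11.14 to 11.69 against 11.30 to 11.64. The difference between experiments was called for 0 of 39 genes and for 0% of all genes (limma), with Dnajb1 at -0.44 ± 0.14 (adj. p = 0.292, limma). The gene that was higher in experiment 10 was Hspb8 (0.42 ± 0.11, adj. p = 0.0104, limma). There the mean level of skeletal muscle markers was higher too, at 8.14 against 6.95, with ranges of 5.64 to 9.59 and 4.69 to 9.58. The mean macrophage marker level was higher as well, at 9.81 against 8.73, with ranges of 9.21 to 10.58 and 8.21 to 9.34. The part of either level in the result was not tested. Against untreated mice, who like the TNFR-Ig mice had no antibody, 0 of 39 genes were called by limma, while 3.01% of all genes were called. An unadjusted p under 0.05 was reached by 7 of the 39 and by 2214 of all 12534 genes. In that comparison Hspa1a was at -0.52 ± 0.26 and Hspa5 at -0.004 ± 0.052. Of the further lists, Dnajb2 (-0.21 ± 0.05), Syvn1 (-0.28 ± 0.08), Hspa13 (-0.21 ± 0.05) and Derl2 (-0.12 ± 0.02) were lower under TNFR-Ig than under control antibody, and 0 of 28 targets of Atf4 and Ddit3 were called. Macrophage markers were higher for 3 of 12 genes (median 0.531).

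Anti-TWEAK, given at the same antibody dose as its control, was compared with the control antibody. Chaperone genes were lower under it, with calls mainly among cytosolic genes: 9 of 39 fell, 8 of them cytosolic, and 0 rose. This was 23.1%, against 2.8% called and 1.66% lower among all genes. Of the 18 ER genes 1 was called, and 0 had a positive change (median -0.0963). Hspa1a fell by 0.94 (SE 0.21, adj. p = 0.00805, a factor of 1.92, limma), Hspa1b by 0.63 (SE 0.11), Dnaja1 by 0.39 (SE 0.06), Chordc1 by 0.37 (SE 0.06), Hsph1 by 0.35 (SE 0.09), Dnajb1 by 0.26 (SE 0.07), Bag3 by 0.19 (SE 0.05) and Hspa8 by 0.09 (SE 0.02). Dnajb9, an ER J protein that holds IRE1 inactive, fell by 0.14 (SE 0.04), a call near the threshold (adj. p = 0.046, limma). Hspa5 (-0.10 ± 0.04), Xbp1 (-0.01 ± 0.04), Ddit3 (-0.08 ± 0.10) and Atf4 (-0.03 ± 0.04) did not pass.

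In experiment 10, 19 genes fell, where 14.9% of all genes were called (9.25% higher and 5.69% lower). In experiment 7, 0 of 39 genes and 0% of all genes were called by limma. An unadjusted p under 0.05 was reached by 9 of the 39 and by 1074 of all 12534 genes. Chordc1 was the 1 gene whose ranges were apart in both: 12.27 to 12.72 under control antibody against 12.08 to 12.26 under anti-TWEAK in experiment 7 (0.0399% of all genes), and 12.55 to 13.02 against 12.31 to 12.47 in experiment 10, where 11 of 39 genes were apart (2.09% of all genes). Apart in experiment 10 too were Hspa5, Hyou1, Dnajb11, Dnajc3, Sdf2l1 and Manf of the ER. The others were Hspa1b, Hspa8, Dnaja1 and Dnajb1 of the cytosol. Hspa1b read 12.25 to 13.34 against 12.14 to 12.90 in experiment 7 and 13.31 to 14.10 against 12.61 to 13.09 in experiment 10. Against untreated mice, a comparison added after the values were seen, 1 of 39 genes was called, against 6.1% of all genes (2.28% lower). That gene, Bag3, was at -0.18 ± 0.06 and lost its call without the untreated array that stands apart. In the same comparison Hspa1a was at -0.73 ± 0.25 (adj. p = 0.0626, limma) and Hspa1b at -0.36 ± 0.13 (adj. p = 0.0783, limma). Of the further lists, Dnajb2 (-0.20 ± 0.05), Syvn1 (-0.27 ± 0.07), Hspa13 (-0.24 ± 0.05), Derl2 (-0.11 ± 0.02) and Sel1l (-0.10 ± 0.02), the partner of Syvn1, fell under anti-TWEAK. Of the macrophage, neutrophil, plasma cell and pancreatic acinar markers 0 were called in the comparison with the control antibody by limma. An unadjusted p under 0.05 was reached by 3 macrophage markers, 1 neutrophil marker and 2099 of all 12534 genes.

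**Figure D3:**
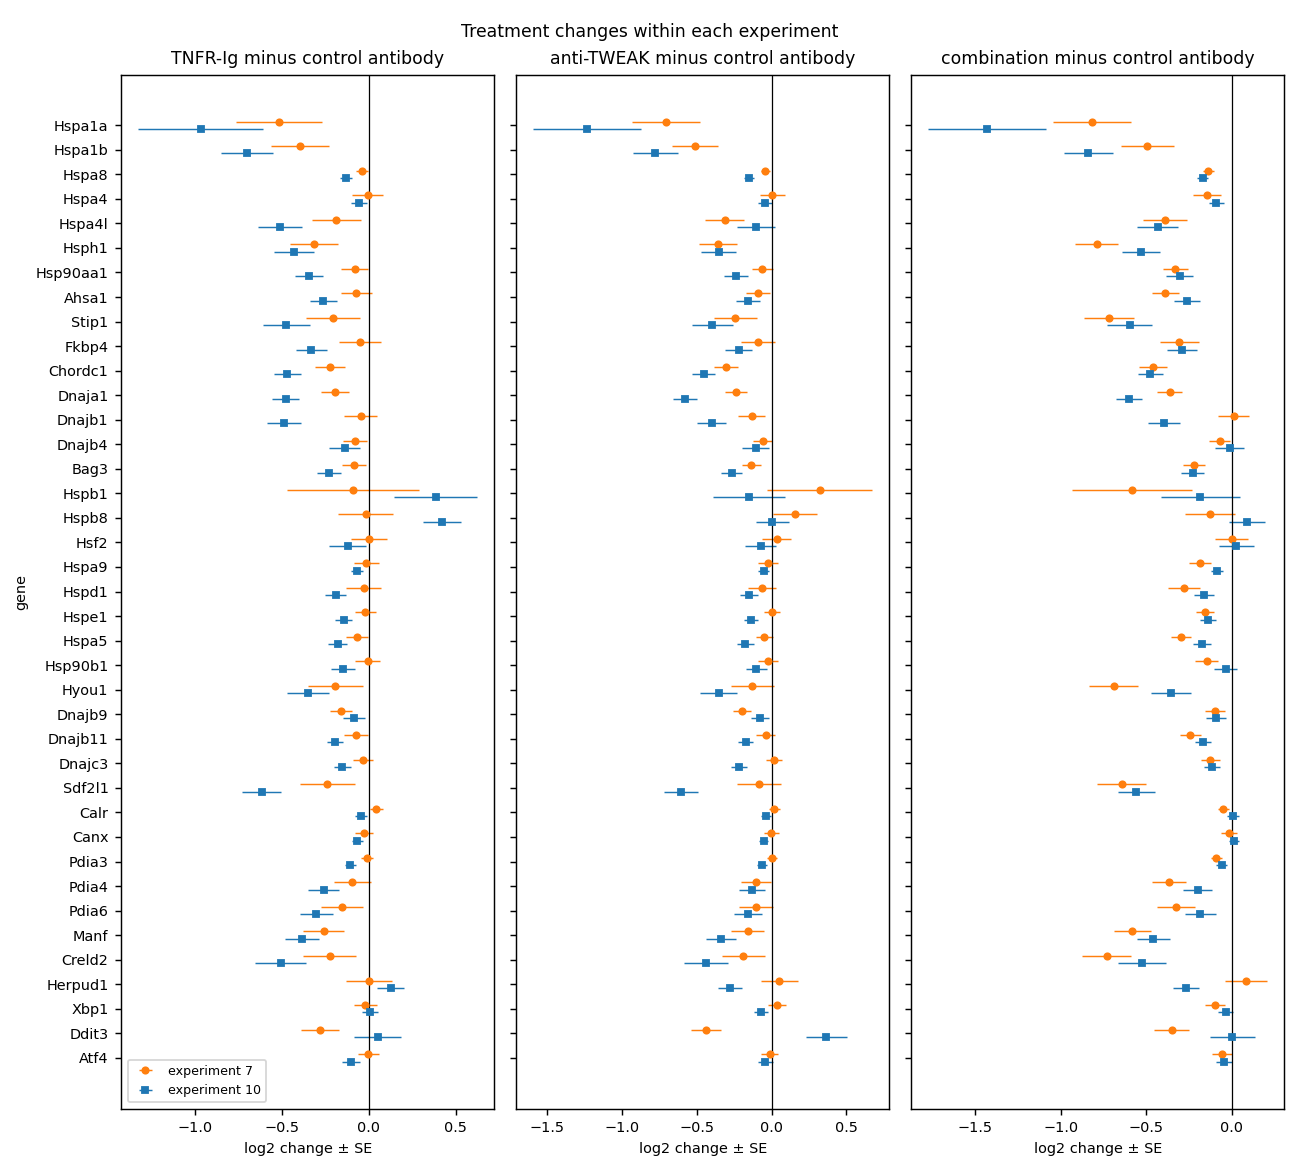
Log2 change with its SE (horizontal axis) of the 39 genes under each treatment against the control antibody, fitted within experiment 7 (circles) and experiment 10 (squares). The combination lowered Hspa1a, Hspa1b, Hsph1 and Chordc1 in both, while Dnajb1 was at -0.40 in experiment 10 and 0.01 in experiment 7 and Ddit3 under anti-TWEAK was at 0.36 and -0.44.

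Ddit3 was the 1 gene of the 39 for which a difference in response between experiments passed. Under anti-TWEAK it was at 0.36 ± 0.14 in experiment 10 and -0.44 ± 0.10 in experiment 7, neither of which passed in its own experiment (adj. p = 0.0649 and 0.345, limma). The difference between them was 0.80 ± 0.17 (adj. p = 0.00948, limma), where 1.72% of all genes were called. Its anti-TWEAK arrays read from 8.44 over 8.88 to 9.12 in experiment 7 and from 9.16 over 9.32 to 9.66 in experiment 10, without overlap. The control antibody arrays read from 8.94 over 9.25 to 9.68 and from 8.35 over 9.02 to 9.53. With the pancreas marker level as a covariate, 0 genes were called for this difference. On its second probe set the difference was -0.07 ± 0.20 (adj. p = 0.885, limma), of the opposite sign and not called.

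The combination was compared with each agent alone. Against TNFR-Ig, 2 of 39 genes were lower (5.13%, against 6.71% of all genes, 4.5% lower), Hsph1 (-0.30 ± 0.09, adj. p = 0.0406, limma) and Stip1 (-0.33 ± 0.11, adj. p = 0.0489, limma). Both calls were lost without the 2 arrays of the other array run (-0.24 and -0.29, adj. p = 0.077 and 0.0844, limma), while Herpud1 then passed (-0.24, adj. p = 0.0272, limma; -0.15 and adj. p = 0.279 with them). The other followed genes were at -0.37 ± 0.22 for Hspa1a, -0.11 ± 0.11 for Hspa1b, 0.08 ± 0.07 for Dnajb1, -0.12 ± 0.04 for Hspa5, -0.06 ± 0.04 for Xbp1, -0.06 ± 0.10 for Ddit3 and -0.002 ± 0.039 for Atf4. Over the same comparison 10 of 12 macrophage and 8 of 10 neutrophil markers were lower. Against anti-TWEAK, 0 of 39 genes were called by limma, as were 0% of all genes. An unadjusted p under 0.05 was reached by 19 of the 39 and by 2258 of all 12534 genes. There Hspa1a was at -0.16 ± 0.21, Hspa1b at -0.02 ± 0.11, Dnajb1 at 0.08 ± 0.07, Hspa5 at -0.14 ± 0.04, Xbp1 at -0.06 ± 0.04, Ddit3 at -0.11 ± 0.10 and Atf4 at -0.03 ± 0.04. Against untreated mice, a comparison added after the values were seen, 10 of 39 genes were lower under the combination (24.6% of all genes were called, 10.6% lower). Of these 9 were cytosolic and 1, Manf (-0.29 ± 0.09), of the ER. The largest were Hspa1a (-0.89 ± 0.25), Hspb1 (-0.84 ± 0.26), Hspa1b (-0.38 ± 0.13), Hspb8 (-0.38 ± 0.12) and Hsph1 (-0.32 ± 0.11). Hspa1a, Hspa1b and Hsph1 no longer passed without the untreated array that stands apart (adj. p = 0.0513, 0.132 and 0.0712, limma).

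Mice under the combination still differed from naive mice in these genes. Of the 39 genes, 18 were higher and 3 lower (53.8%, against 25.3% of all genes, 13.3% higher and 12% lower): 12 of 18 ER genes and 4 of 18 cytosolic genes were higher. Whether the compartments differ was not tested. Naive mice were in experiment 10 only, so these counts depend on the experiment term. In experiment 10 alone 26 genes were called, 20 of them shared with the 21 here. Creld2 was higher by 0.70 ± 0.13, Hyou1 by 0.60 ± 0.13, Sdf2l1 by 0.46 ± 0.12, Pdia4 by 0.42 ± 0.09, Pdia6 by 0.42 ± 0.10, Manf by 0.36 ± 0.10, Stip1 by 0.35 ± 0.13, Hsp90b1 by 0.32 ± 0.06 and Hspa5 by 0.27 ± 0.05. Bag3 (0.25 ± 0.06), Ahsa1 (0.20 ± 0.08), Hsp90aa1 (0.20 ± 0.07), Xbp1 (0.19 ± 0.05), Hspe1 (0.18 ± 0.05), Hspd1 (0.18 ± 0.07), Dnajc3 (0.18 ± 0.05), Calr (0.15 ± 0.03) and Pdia3 (0.15 ± 0.03) were higher too. Ddit3 (-0.44 ± 0.12), Hsf2 (-0.24 ± 0.09), a heat shock factor of development, and Dnajb9 (-0.21 ± 0.05) were lower. Hspa1a (-0.14 ± 0.26), Hspa1b (-0.07 ± 0.13), Dnajb1 (-0.18 ± 0.09) and Atf4 (-0.03 ± 0.05) did not pass. In experiment 10, 14 of 39 genes had combination arrays above all naive arrays (6.04% of all genes). The control antibody arrays were above all naive arrays for 27 of 39 genes (13.2% of all genes), Hspa1a, Hspa5 and Creld2 among them, and the untreated arrays for 10 of 39 (9.69%). For Creld2 the combination arrays began at 11.06, above the highest naive array at 10.69. For Hspa1b they read 12.60 to 13.06, across the naive range of 12.79 to 13.13.

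The colitic mice of the experiments differed in these genes. In experiment 10, 22 of 39 genes were higher and 5 lower than in experiment 7 (69.2%, against 44.5% of all genes, 28.3% higher and 16.2% lower), and 14 of the 22 were cytosolic. Hspa1a was higher by 0.93 ± 0.14, Hsph1 by 0.50 ± 0.06, Hspa1b by 0.46 ± 0.07, Hspa4l by 0.45 ± 0.06, Stip1 by 0.32 ± 0.07, Creld2 by 0.29 ± 0.07, Chordc1 by 0.23 ± 0.04, Ahsa1 by 0.22 ± 0.04, Bag3 by 0.22 ± 0.03 and Pdia4 by 0.22 ± 0.05. Hyou1, Dnaja1, Hsp90b1, Pdia6, Fkbp4, Hsp90aa1, Dnajb4, Dnajb1 and Hspa5 were higher by between 0.13 and 0.20, and Dnajc3 (0.10 ± 0.03), Xbp1 (0.08 ± 0.03) and Hspa8 (0.04 ± 0.02) by less. Hspb1 (-0.37 ± 0.15), Herpud1 (-0.30 ± 0.05), Hsf2 (-0.24 ± 0.05), Hspb8 (-0.21 ± 0.07) and Hspa4 (-0.08 ± 0.03) were lower, and Ddit3 (0.12 ± 0.06) and Atf4 (-0.05 ± 0.03) did not pass. Experiment and array run, as read from the start of the description, cannot be told apart here except for the 2 combination arrays. With the 3′ to 5′ difference of Actb as a covariate, a measure of RNA quality, 14 genes were called in place of 27. Of the 8 plasma cell markers 6 were higher in experiment 10, and of the 10 skeletal muscle markers 3 were lower (median -0.95).

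The genes also varied together from mouse to mouse within groups. After the mean of each group in each experiment had been subtracted, 12 chosen pairs were correlated over the 72 arrays (Pearson r and Spearman rho, 100000 two-sided permutations within groups, Benjamini-Hochberg over 12). Hspa1a and Hspa1b gave r = 0.846 (rho 0.872, permutation adj. p = 2.4e-05 and 3e-05), where the unadjusted p of 1e-05 is the smallest that the permutations can give. Their probe sets may read transcripts of both copies, so this value may not compare separate genes. Hspa1a went with Hsph1 (r = 0.50, rho 0.46, permutation adj. p = 0.00076 and 0.0005) and with Dnajb1 (r = 0.52, rho 0.415, permutation adj. p = 0.00101 and 0.00154), and r was 0.381 and 0.375 without the 2 farthest arrays. It did not go with Hsp90aa1 by this test (r = 0.324, rho 0.187, permutation adj. p = 0.0604 and 0.193; r = 0.13 without the 2 farthest). With Hspa5 its Pearson value passed and its rank value did not (r = 0.287, rho 0.261, permutation adj. p = 0.0369 and 0.0545), with r = -0.0321 in experiment 7 and 0.542 in experiment 10.

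ER genes formed close pairs. Hspa5 went with Pdia4 (r = 0.805, rho 0.758), Hsp90b1 (r = 0.687, rho 0.627) and Sdf2l1 (r = 0.609, rho 0.515), each with a permutation adj. p of 2.4e-05 for r and of at most 0.000144 for rho, and each held in both experiments (r of 0.58 or more). Hspd1 and Hspe1, which share the heat shock element shown above, gave r = 0.854 (rho 0.816, permutation adj. p = 2.4e-05 and 3e-05), 0.89 in experiment 7 and 0.815 in experiment 10. Ddit3 and Atf4 gave r = 0.255 and rho 0.135 (permutation adj. p = 0.0369 and 0.278). Hspa5 gave r = 0.0212 and rho -0.137 with the plasma cell markers (permutation adj. p = 0.876 and 0.278), and r = 0.295 and rho 0.232 with the pancreatic acinar markers (permutation adj. p = 0.0369 and 0.105).

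All 741 pairs of the 39 genes were then examined by the same test, after the values were seen, with adjustment over 741. Both coefficients passed for 314 positive and 39 negative pairs, and the median r was 0.266. Pairs of other genes were not examined, so these counts are not known to be particular to the list. Between ER and mitochondrial genes 36 of 54 pairs were positive (median r 0.526), and among ER genes 77 of 153 were (median r 0.359). The closest pairs were Manf with Creld2 (r = 0.932), Pdia4 with Creld2 (r = 0.915), Ahsa1 with Fkbp4 (r = 0.907) and Hyou1 with Creld2 (r = 0.896). Pairs across compartments were nearly as close: Stip1 of the cytosol with Creld2 of the ER (r = 0.89), Hspa4 with mitochondrial Hspa9 (r = 0.894), and Ahsa1 with Sdf2l1 (r = 0.852). Herpud1 ran against Canx (r = -0.665) and Calr (r = -0.541), and Hspa4l ran against Hspb1 (r = -0.557; -0.775 in experiment 7 and -0.21 in experiment 10) and Hspb8 (r = -0.54). These genes share the array, so an error common to an array would enter each pair.

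**Figure D4:**
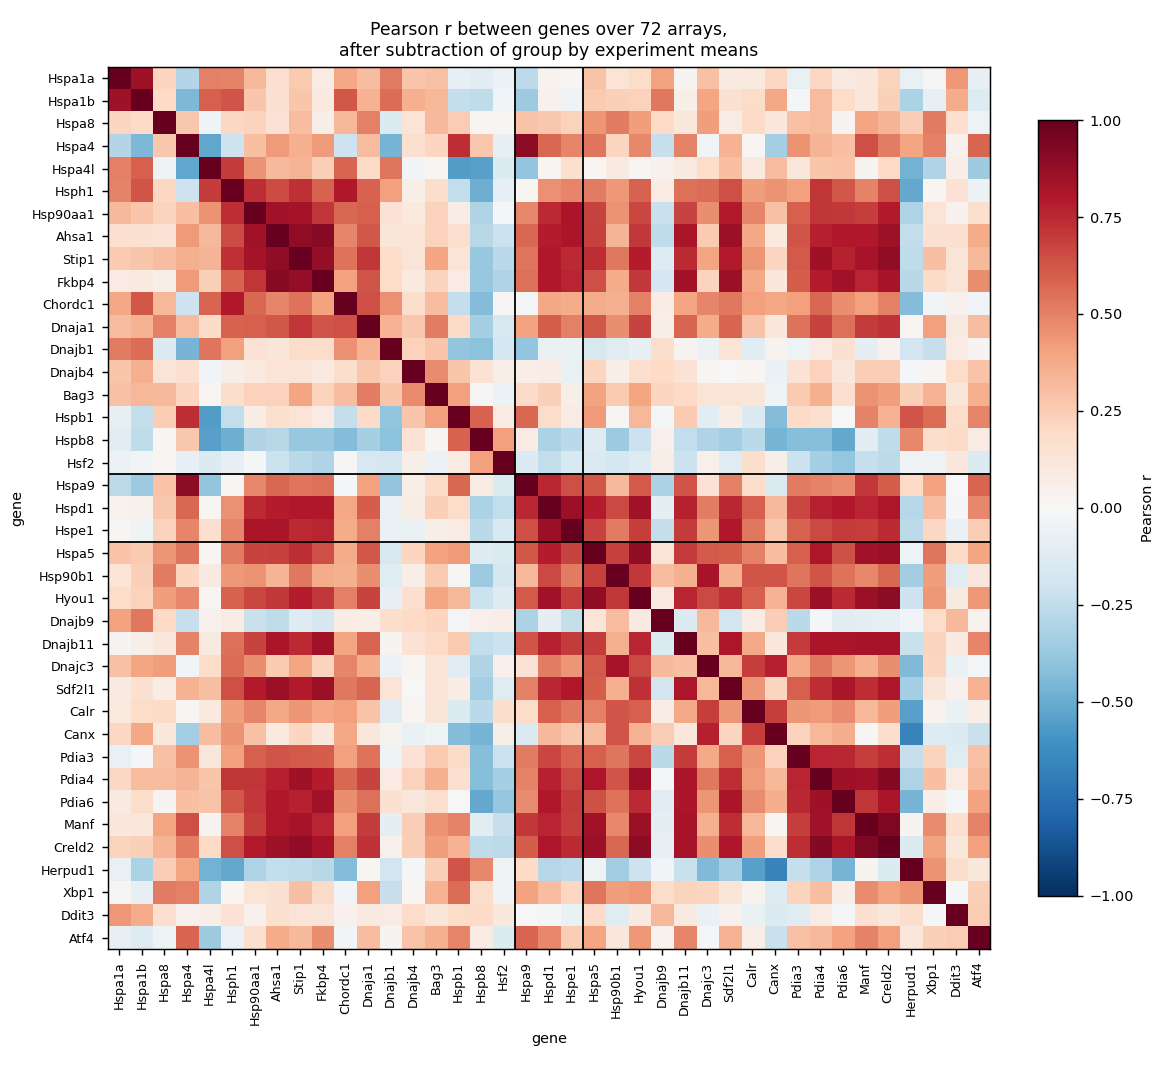
Pearson r between the 39 genes over 72 arrays after subtraction of the mean of each group in each experiment; red is positive, blue is negative, and lines part the cytosolic, mitochondrial and ER genes. Stip1, Ahsa1, Fkbp4 and Hsp90aa1 form a red block with the mitochondrial and most ER genes, while Hspb1, Hspb8, Hsf2 and Herpud1 are mostly pale or blue.

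Cell type markers were set against the 39 genes in the same way, again after the values were seen (351 tests of 9 measures). Shares over all genes were not computed, so the counts below are not known to be particular to the list. Both small heat shock genes went with the myeloid markers, and Hspb8 with skeletal muscle markers as well. Hspb1 went with the macrophage level (r = 0.688, rho 0.675, permutation adj. p = 0.00027 and 0.000251) and the neutrophil level (r = 0.645, rho 0.658), and Hspb8 with the macrophage level (r = 0.609, rho 0.618). The closest relation of Hspb8 was with the skeletal muscle level (r = 0.656, rho 0.597, permutation adj. p = 0.00027 and 0.000251), at r = 0.704 in experiment 7 and 0.56 in experiment 10. Pdia3 (r = -0.459) and Pdia6 (r = -0.424) ran against that level, the other 2 of 39 genes that passed with it. Smooth muscle markers passed with 5 genes: Dnajb1 went with them (r = 0.413), and Hspa9 (r = -0.475), Hspa4 (r = -0.465), Herpud1 (r = -0.42) and Xbp1 (r = -0.392) ran against them. Hspa4 followed the macrophage level too (r = 0.563), more in experiment 7 (r = 0.725) than in experiment 10 (r = 0.192), a difference that was not tested. Dnajb1 (r = -0.604, rho -0.595) and Hspa4l (r = -0.581, rho -0.626) ran against the macrophage level, each with a permutation adj. p of 0.00027 and 0.000251. The same genes had the opposite relation to colonocyte markers, with Dnajb1 at r = 0.547 and Hspb1 at r = -0.637. Pancreatic acinar markers passed with 1 of 39 genes, Ahsa1 (r = 0.348), plasma cell and goblet markers with 0, and the Actb measure with 2, Dnajb9 (r = 0.498) and Hsp90b1 (r = 0.401).

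A second look came from the other probe sets, 46 of them above the same limit on the mean level, for 27 of the 39 genes. Under the combination 44 of 46 had the sign of the brightest probe set, and of the 31 that belong to called genes 30 had its sign and 24 were called. In colitis 41 of 46 had the same sign, and of 29 that belong to called genes 28 had its sign and 20 were called. In other comparisons fewer matched. For experiment 10 against experiment 7, 34 of 46 had the same sign, and of 36 that belong to called genes 28 had it, 21 were called with it and 3 were called with the opposite sign. These 3 were 2 sets of Hspa4 (0.51 and 0.57, against -0.08 on the brightest) and 1 of Dnajc3 (-0.17 against 0.10). For the combination against naive mice 37 of 46 had the same sign, and 1 set, of Ahsa1, was called with the opposite sign (-0.36 against 0.20). Hsph1 moved more on its second probe set (1.05 in colitis and -1.45 under the combination), as did Hspa1b on its others (-1.05 and -1.02 under anti-TWEAK). The second set of Ddit3 fell in colitis too (-0.63). Fkbp4 disagreed: its second, dim set (mean level 3.76) fell in colitis (-0.55) while the brightest was at 0.23, and the dim second set of Ahsa1 (mean level 2.75) fell by 0.30 where the brightest rose. For Hspa4l 2 of its dimmer sets rose in colitis (0.40 and 0.43) while the brightest did not pass. For Dnaja1 the other 2 sets (0.19 each) did not pass in colitis.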

How the data were processed

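Colon RNA of 72 mice had been hybridised to 1 array each. The deposited table holds log2 values of 45101 probe sets, made by the authors with RMA or GCRMA in R 2.11.1 and limma 3.4.5, per the submitters' processing notes, which do not say which values come from which tool. That the scale is log2 was read from the values. Probe sets with 1 symbol (34945) gave 18193 genes, each by its brightest probe set, and the 12534 with a mean of at least 2.42 (the 40th percentile) were tested. Limma 3.58.1 in R 4.3.3 fitted terms for 6 groups and for experiment, two-sided, with Benjamini-Hochberg adjustment over all genes tested, after a check on simulated data. Differences between experiments came from a fit with a term per group and experiment. Figures and correlations used Python 3.11.15 with scipy 1.17.1. The members and lists were chosen with earlier results of these data known, and the 741 gene pairs, the 351 marker relations and the anti-TWEAK and combination comparisons with untreated mice were added after values were seen. In each comparison the text names up to 20 called genes by size of change, always Hspa1a, Hspa1b, Dnajb1, Hspa5, Xbp1, Ddit3 and Atf4, and up to 4 called genes per direction from each further list. Alternatives were other filters, probe sets, normalization, array weights, covariates, single experiments, left-out arrays and a replicate block.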

Additional observations from a re-analysis of the deposited data

Results flagged for a closer look

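In each group of each experiment with 4 to 10 arrays, the highest and lowest value of every gene was set against the gap to its neighbour by Dixon's 95% limit. Of 429 such sets, 29 had an extreme value (6.76%), where chance gives about 1 in 20. Replicate 1 of the untreated mice of experiment 10 was the highest of 4 for Dnaja1 (13.07), Dnajb1 (12.36) and Fkbp4 (11.15) and the lowest for Hspb8 (11.02). Replicate 7 of the combination mice of experiment 7 was the lowest of 8 for Canx (13.39), Chordc1 (11.45), Dnajc3 (12.47), Hsph1 (11.90) and Pdia4 (11.38) and the highest for Herpud1 (13.25). Replicate 1 of the TNFR-Ig mice of experiment 7 was the lowest of 6 for Hsp90aa1 (13.01), Hspe1 (13.59), Hsph1 (12.90) and Pdia6 (10.54).

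The other extreme values were scattered. In untreated mice of experiment 7, Ahsa1 (10.93), Chordc1 (12.64) and Dnajc3 (12.96) each had a high array. In naive mice Calr had a high array (13.83) and Hspa5 a low one (13.64). Under control antibody in experiment 10, Dnajc3 had a high array (13.23) and Hsph1 a low one (13.62). Under TNFR-Ig, Hspa1a had a high array in experiment 7 (4.91), and Hsf2 (4.37), Hspa8 (14.82) and Xbp1 (12.46) had low arrays in experiment 10. Under anti-TWEAK, Hsf2 had a high array in experiment 7 (5.38) and Dnajb11 a low one in experiment 10 (11.96). Under the combination in experiment 10, Hspa1a had a high array (5.29) and Pdia3 a low one (13.75). These arrays were kept.

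Ddit3 differed between experiments in its response to anti-TWEAK, by 0.80 on the log2 scale, as tested by limma's interaction contrast. Its second probe set gave -0.07.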

How the results depend on the processing

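The counts below are of the 39 genes called by limma, and causes of their changes were not tested unless the setting itself removes samples. Control antibody against untreated mice gave 11 genes in the fit of both experiments, 3 without the experiment term, 0 in experiment 7 and 21 in experiment 10. TNFR-Ig against control antibody gave 11, then 5, 0 and 25 under the same settings. Anti-TWEAK against control antibody gave 9, and 0 in experiment 7, 19 in experiment 10, 16 with array weights and 1 with untreated mice as the control. The combination against control antibody gave 27, and 10 with untreated mice as the control. Untreated against naive mice gave 27, and 25 without the experiment term (22 shared in the same direction) and 25 in experiment 10 (23 shared). Combination against naive mice gave 21, then 17 (14 shared) and 26 (20 shared) under the same settings. With the pancreas covariate it gave 17 (17 shared), and with the Actb covariate 17 (17 shared). Combination against TNFR-Ig gave 2, and 0 without the filter on dim genes, without the experiment term and in experiment 7. It gave 1, either Hsph1 or Stip1, with every probe set and without the naive array of conflicting labels. In experiment 10 it gave 1, with 0 shared in the same direction with the fit of both experiments. Without the 2 arrays of the other run it gave 1, which was Herpud1 and not Hsph1 or Stip1. It gave 13 with array weights and 5 with the pancreas covariate. Combination against anti-TWEAK gave 0, and 1 in experiment 7, 6 with array weights and 9 with the pancreas covariate. The experiment difference gave 27, and 14 with the Actb covariate. The difference between experiments in the control antibody effect gave 0, and 1 without untreated replicate 1 of experiment 10. That in the anti-TWEAK effect gave 1, and 3 with array weights or without the 2 arrays, and 0 with the pancreas covariate. Dnajb1 under the combination reversed to 0.011 in experiment 7 alone (adj. p = 0.953, limma).

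Same-numbered arrays did not pair: over 132 pairs of equal replicate number the median correlation of deviations was -0.00498, 48 were over 0.1, and 8 samples correlated best with their own number. With a replicate block, control antibody against untreated mice gave 6 genes and combination against TNFR-Ig gave 0; of the 193 named results, 181 kept their side of the threshold, 11 no longer passed and 1 newly passed. The number of arrays limits these values; several treatment calls rest on experiment 10.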
